A study of Homo sapiens with 6 samples.

Results

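Antisense transcripts are RNAs read from the strand opposite to a gene, and their names carry the symbol of that gene followed by -AS. Many of them start close to the start of the sense gene and share a GC-rich, bidirectional promoter with it, others run across its 3′ end, and some lie inside an intron. Most are long noncoding RNAs at low level, and single members are known to act on their neighbour, on chromatin or as binding partners of proteins and microRNAs. EGR3, the gene that was induced in these cells, is a zinc finger transcription factor of the early growth response family that binds GC-rich DNA.

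Expressed antisense transcripts were taken as the genes whose name ends in -AS, with or without a number, and that had at least 20 counts in each SEM::EGR3 library or in each SEM::mock library. Of 978 such names 262 met the count (26.8%), and 29 had no count in any library. The counts thus chose the members. They reached 20 counts in all 6 libraries for 137 members, in the SEM::EGR3 libraries only for 115 and in the SEM::mock libraries only for 10. By type, 258 members were listed as lncRNA and 4 as transcribed pseudogenes. A sense gene, the row named by the text before -AS, was found for 253 members, which name 251 different genes. For the other 9 members the sense gene was not analysed here.

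The 2 groups are lines made from SEM, an established human cell line of a B cell precursor leukemia that carries the KMT2A::AFF1 fusion. SEM::mock carries the empty vector and SEM::EGR3 an inducible EGR3 transgene, and both were treated with 1 µg/mL doxycycline for 48 h before RNA was prepared. Each line is represented by 3 libraries labelled as biological replicates, and nothing in the labels says how separate the cultures were or how many clones a line holds, so that the p-values measure the spread between these libraries. RNA was measured by MACE-Seq, in which short tags are read near the poly(A) end of each RNA. A count is therefore an end tag and does not scale with transcript length.

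The listed counts summed to between 5286115 and 6181388 in SEM::mock and to between 7293092 and 15106018 in SEM::EGR3, and the members held between 0.268% and 0.362% of them. Because of this depth, 20 counts corresponded to 3.34 to 3.91 CPM (counts per 1000000 listed counts, TMM normalised) in SEM::mock and to 1.28 to 2.68 CPM in SEM::EGR3. EGR3 was read 8, 10 and 6 times in the SEM::mock libraries and 9768, 4952 and 5557 times with the transgene, as labelled. The lines also differed in markers of the labelled cell type. Of 12 B-lineage markers, 8 were at 3 counts or fewer in every SEM::mock library, among them PAX5 and EBF1, and the list summed to 134 to 158 CPM in SEM::mock against 518 to 546 CPM in SEM::EGR3. Most of the SEM::mock sum was CD24, which went the other way (143 CPM in SEM::mock, 23.4 CPM in SEM::EGR3), and DNTT and BLNK were at 3 counts or fewer in both lines. Of 11 targets of KMT2A fusions, 4 were at 3 counts or fewer in every SEM::mock library, and the list summed to 152 to 178 CPM there and to 1223 to 1287 CPM in SEM::EGR3. LMO2, the largest part of the SEM::mock sum, went the other way (110 and 31.8 CPM). The 15 erythroid markers, which a proB line is not known for, summed to 5179 to 5477 CPM in SEM::mock and to 6309 to 6552 CPM in SEM::EGR3. On chromosome 9, CDKN2A and KLHL9 had no count in any SEM::mock library and stood at 151 and 18.4 CPM in SEM::EGR3. Of 9 listed genes of this 9p21 block, 8 were at 3 counts or fewer in every SEM::mock library. In SEM::EGR3 this held for 3 of the 9. MLLT3 went the other way (19.3 CPM in SEM::mock, 4.32 CPM in SEM::EGR3). The SEM::mock libraries therefore go against their labelled cell type in most B-lineage markers, and both lines do so in the erythroid markers. Both are named by their labels below, and the effect of EGR3 cannot be told apart from other differences between the lines. No result could be recomputed within a line, since a line is 1 group.

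The promoters of 6 members are shown because the values below turn on them, as the most abundant member, as members with large differences, and as members that share their window with the sense gene. Each window holds 250 bases before and 50 bases after the start of the RefSeq gene, on the strand of the antisense transcript (GRCh38.p14), in lower case with the letters GCGNGGGCG, the core of the EGR binding motif, in capitals where either strand holds them. The windows lie at chr7:92836233-92836532 for CDK6-AS1, chr19:52397708-52398007 for ZNF528-AS1, chr6:52576952-52577251 for TRAM2-AS1, chr11:10857967-10858266 for ZBED5-AS1, chr15:41283740-41284039 for OIP5-AS1 and chr5:472986-473285 for SLC9A3-AS1. ZNF528-AS1 is on the minus strand and the others are on the plus strand.
CDK6-AS1: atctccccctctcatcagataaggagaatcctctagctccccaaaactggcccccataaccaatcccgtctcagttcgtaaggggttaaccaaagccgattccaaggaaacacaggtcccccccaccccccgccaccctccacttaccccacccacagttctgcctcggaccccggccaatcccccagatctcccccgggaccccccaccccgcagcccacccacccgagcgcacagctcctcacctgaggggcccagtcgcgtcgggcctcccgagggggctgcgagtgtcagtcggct
ZNF528-AS1: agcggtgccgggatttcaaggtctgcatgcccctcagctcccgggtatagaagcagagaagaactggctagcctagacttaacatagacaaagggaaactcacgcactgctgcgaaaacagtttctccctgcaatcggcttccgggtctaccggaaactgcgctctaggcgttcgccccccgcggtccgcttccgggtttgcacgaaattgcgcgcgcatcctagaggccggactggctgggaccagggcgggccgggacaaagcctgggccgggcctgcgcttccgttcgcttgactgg
TRAM2-AS1: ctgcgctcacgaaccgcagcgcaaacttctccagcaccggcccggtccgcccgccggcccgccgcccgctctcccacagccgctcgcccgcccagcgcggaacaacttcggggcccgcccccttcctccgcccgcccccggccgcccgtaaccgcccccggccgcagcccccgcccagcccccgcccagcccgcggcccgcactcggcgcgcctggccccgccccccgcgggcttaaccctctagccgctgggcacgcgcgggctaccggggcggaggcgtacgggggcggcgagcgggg
ZBED5-AS1: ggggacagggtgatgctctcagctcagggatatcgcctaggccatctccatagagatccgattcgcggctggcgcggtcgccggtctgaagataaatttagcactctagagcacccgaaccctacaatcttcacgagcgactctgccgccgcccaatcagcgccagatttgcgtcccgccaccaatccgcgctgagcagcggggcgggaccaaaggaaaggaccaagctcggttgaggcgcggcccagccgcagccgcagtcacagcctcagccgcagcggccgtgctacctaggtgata
OIP5-AS1: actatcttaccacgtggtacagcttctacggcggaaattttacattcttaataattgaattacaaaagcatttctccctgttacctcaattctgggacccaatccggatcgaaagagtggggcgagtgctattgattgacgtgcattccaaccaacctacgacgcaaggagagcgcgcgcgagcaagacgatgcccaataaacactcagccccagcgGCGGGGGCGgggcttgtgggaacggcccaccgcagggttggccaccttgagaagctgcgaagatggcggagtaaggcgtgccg
SLC9A3-AS1: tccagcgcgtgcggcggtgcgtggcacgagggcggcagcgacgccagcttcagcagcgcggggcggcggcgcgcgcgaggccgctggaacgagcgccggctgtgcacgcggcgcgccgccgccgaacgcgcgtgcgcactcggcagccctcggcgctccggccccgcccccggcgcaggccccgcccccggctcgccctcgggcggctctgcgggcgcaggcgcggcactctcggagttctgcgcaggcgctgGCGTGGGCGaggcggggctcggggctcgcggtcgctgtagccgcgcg

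In these windows OIP5-AS1 holds the letters from position -33 and SLC9A3-AS1 from position 4, counted from 1 at the start, and the other 4 windows hold none. With their sense genes' windows, the windows of ZBED5-AS1, TRAM2-AS1 and ZNF528-AS1 share 263, 241 and 191 bases, and that of CDK6-AS1 shares 9. Over all members with a RefSeq window, 26 of 189 held the letters (13.8%), and so did 36 of 208 windows of sense genes (17.3%) and 9.43% of 35116 RefSeq windows. The members' windows also had a higher median GC content (64.3% against 58.7%) and a higher median ratio of observed to expected CpG (0.816 against 0.579) than all windows. By call, 6 of 41 windows of members higher in SEM::EGR3, 5 of 31 of lower members and 4 of 29 of members not called held them. These shares describe letters in a window and say nothing about binding.

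The members were low. Their median level was 4.78 CPM in SEM::mock and 7.27 CPM in SEM::EGR3, against 21.6 and 25.4 CPM for their sense genes, with end tags as the scale for both. A member lay below its sense gene in all 6 libraries in 150 pairs and above it in all 6 in 62 pairs. The plot of levels shows the 3 ways in which members met the count.

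**Figure D1:**
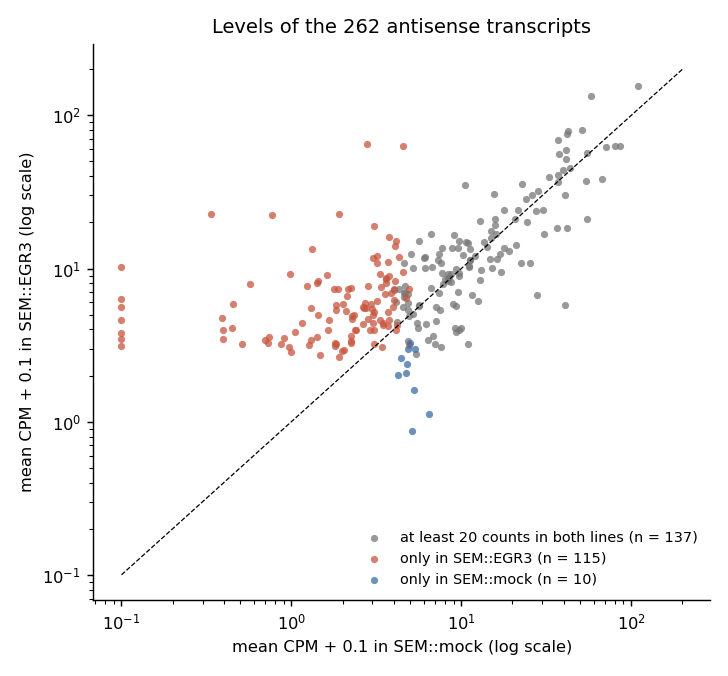
Mean CPM of each antisense transcript in SEM::mock (horizontal) and SEM::EGR3 (vertical), both plus 0.1 and on log scales, with 1 point per member, coloured by the line in which it reached 20 counts, and a dashed line of equal levels. The 137 members counted in both lines lie on both sides of that line, whereas the colours of the other 125 follow from the count rule.

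The most abundant member was OIP5-AS1, a conserved cytoplasmic RNA also known as Cyrano, which is best known for its pairing with miR-7. It measured 103, 117 and 106 CPM in SEM::mock and 152, 152 and 164 CPM in SEM::EGR3, without overlap, and rose by 0.51 ± 0.06 (SE) on the log2 scale (edgeR, adjusted p = 6.67e-08). Its sense gene OIP5, which encodes a centromere protein, lay lower, at 29.1 ± 3.21 (SD, n = 3) and 37.3 ± 2.67 CPM, and also rose (log2 fold change 0.36 ± 0.09, adjusted p = 0.00156). The antisense transcript runs across the 3′ end of OIP5, and the last 200 bases of some of its annotated transcripts touch an OIP5 exon.

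Of the next 7 members by level, 4 rose. FGD5-AS1 rose from 51.4 ± 0.69 to 79.6 ± 1.64 CPM (adjusted p = 6.02e-09), and IGFL2-AS1 from 57.9 ± 11.4 to 133 ± 3.08 CPM (adjusted p = 5.34e-12). GABPB1-AS1, head to head with a subunit gene of the GA-binding protein, went from 42.4 ± 3.27 to 78.5 ± 11.2 CPM and ZNF232-AS1 from 41.6 ± 3.05 to 75.3 ± 3.4 CPM (adjusted p = 3.85e-09 and 2.53e-10). The other members of this group were lower in SEM::EGR3. MRPL20-AS1, next to a gene of the large mitochondrial ribosomal subunit, fell from 85.6 ± 5.01 to 62.8 ± 3.87 CPM, and its sense gene MRPL20 fell as well (log2 fold changes -0.46 ± 0.07 and -0.36 ± 0.05). ZSCAN16-AS1 fell from 80.1 ± 2.75 to 62.6 ± 2.96 CPM (adjusted p = 2.98e-05).

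CDKN2B-AS1, known as ANRIL, spans the CDK inhibitor gene CDKN2B on the 9p21 arm. It measured 70.7, 79.2 and 61.7 CPM in SEM::mock and 58.5, 60.6 and 68.4 CPM in SEM::EGR3, and the libraries overlapped. Its difference of -0.19 ± 0.08 on the log2 scale passed the test (adjusted p = 0.0448) but not in 9 of the alternatives, among them leaving out SEM::mock replicate 2 (log2 fold change -0.11, adjusted p = 0.292) or SEM::EGR3 replicate 1 (-0.13, adjusted p = 0.229). CDKN2B itself had no count in SEM::mock, compared with 9, 4 and 5 in SEM::EGR3. So the SEM::mock libraries held 402, 475 and 316 counts of the antisense transcript and none of the gene it spans or of CDKN2A. The SEM::EGR3 libraries held 911, 452 and 621 counts of the antisense transcript, with CDKN2A at 151 CPM. CDKN2B was at only 0.555 CPM there, 1.03-fold the level of 3 counts per SEM::mock library, so its difference is near the limit of detection.

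Among the 137 members counted in both lines, the SEM::EGR3 level was higher for 46 and lower for 45. These are the called members, with an adjusted p under 0.05, and 46 were not called. This amounts to 66.4% called, against 68.5% of all 15465 tested genes and 68% of the 11454 tested genes that also had 20 counts in all libraries. By direction, 33.6% of the members were higher (30.1% of those 11454 genes, 36.5% of all tested genes) and 32.8% lower (37.9% and 32%). The median log2 fold change of the members was 0.05, with a range of -2.84 to 1.76, beside 0.03 over all tested genes and -0.06 over the genes with 20 counts in all libraries. The lines did not overlap in 62.8% of the members, compared with 69.7% of those genes and 70.1% of all tested genes. The share called was thus close to both backgrounds, whose levels were not matched to those of the members. A log2 fold change of at least 1 in size was reached by 6 called members that were higher and 15 that were lower, 15.3% of the 137, beside 13.7% of the genes with 20 counts in all libraries.

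Among the members counted in both lines, the largest increase was that of SLC9A3-AS1, inside the gene of the sodium-proton exchanger NHE3. It measured 11.8, 9.84 and 9.57 CPM in SEM::mock and 37.8, 34.9 and 32.5 CPM in SEM::EGR3, a log2 fold change of 1.76 ± 0.11 (adjusted p = 9.89e-13). SLC9A3 itself had no count in SEM::mock and 2 counts in each SEM::EGR3 library, so the antisense transcript was detected where its sense gene was at or under 3 counts. EXOC3-AS1 starts 2 bases from the start of EXOC3, a gene of the exocyst complex. It rose from 6.51, 6.17 and 6.84 CPM to 15.8, 16.6 and 17.5 CPM (log2 fold change 1.35 ± 0.14, adjusted p = 7.2e-09), whereas EXOC3 rose by 0.20 ± 0.06 (adjusted p = 0.00581). From the same start region both transcripts were thus higher, the antisense transcript by more.

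GATA6-AS1 is head to head with GATA6, a zinc finger factor of endoderm and heart development. It measured 5.98, 4 and 6.64 CPM in SEM::mock and 15.2, 15 and 15.1 CPM in SEM::EGR3 (log2 fold change 1.46 ± 0.16, adjusted p = 1.71e-08). GATA6 went from 13.1 ± 2.11 to 25.8 ± 0.927 CPM (0.97 ± 0.12, adjusted p = 6.29e-08), so that both transcripts rose without overlap. YTHDF3-AS1, head to head with the gene of an m6A reader protein, rose by 0.98 ± 0.16, and YTHDF3 by 0.68 ± 0.07 (adjusted p = 8.42e-06 and 3.91e-09). SDCBP2-AS1 rose by 1.31 ± 0.17 (adjusted p = 2.97e-07), and its sense gene SDCBP2 was low and not called (0.58 ± 0.31, adjusted p = 0.104).

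In 2 further pairs the sense gene went the other way, as it also did for IGFL2-AS1, described below. PPM1F-AS1 rose from 4.47 ± 0.52 to 10.7 ± 1.17 CPM, and PPM1F, a protein phosphatase gene, fell from 238 ± 4.65 to 165 ± 6.73 CPM (log2 fold changes 1.25 ± 0.18 and -0.53 ± 0.05). ZBED5-AS1, whose promoter window above is largely that of ZBED5, rose from 14.6, 16.5 and 15.4 CPM to 33.1, 29 and 29.6 CPM (log2 fold change 0.99 ± 0.1, adjusted p = 7.71e-09). ZBED5 was lower by a smaller step, -0.22 ± 0.08 (adjusted p = 0.0151), a call that was lost without SEM::EGR3 replicate 2 (-0.17, adjusted p = 0.0613) or replicate 3 (-0.19, adjusted p = 0.0542).

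The largest decrease among them was that of KAZN-AS1, inside the gene of kazrin, a protein of cell junctions. It measured 39.1, 47.2 and 35.7 CPM in SEM::mock and 5.4, 4.83 and 6.82 CPM in SEM::EGR3 (log2 fold change -2.84 ± 0.13, adjusted p = 1.14e-15). KAZN was far lower in both lines, at 1.97 ± 0.196 and 0.925 ± 0.32 CPM, and its decrease (-1.20 ± 0.36, adjusted p = 0.00513) was lost without SEM::EGR3 replicate 1 (-0.84, adjusted p = 0.064). B3GALT1-AS1, which lies around a galactosyltransferase gene, fell from 54.7 ± 4.4 to 20.8 ± 1.72 CPM (adjusted p = 4.66e-13), while B3GALT1 had 6 to 20 counts per library and was not tested. In both loci the antisense transcript was the more abundant of the pair.

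FOXP4-AS1 fell by 1.77 ± 0.19 on the log2 scale, from 10.8 ± 1.1 to 3.1 ± 0.78 CPM (adjusted p = 1.4e-08). Its sense gene FOXP4, a forkhead factor, was not called (0.10 ± 0.08, adjusted p = 0.275). HOXB-AS1, transcribed among the HOXB genes, fell from 9.23 ± 1.93 to 3.75 ± 0.415 CPM (adjusted p = 1.78e-06).

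VIM-AS1 crosses the 5′ end of VIM, the gene of the intermediate filament vimentin. It measured 7.92, 7.01 and 7.42 CPM in SEM::mock and 3.28, 3.22 and 2.42 CPM in SEM::EGR3 (log2 fold change -1.30 ± 0.20, adjusted p = 3.08e-06). VIM stood at 933 ± 47.5 and 287 ± 16.4 CPM, a fall by 1.70 ± 0.06 (adjusted p = 1.14e-18). TRAM2-AS1 and TRAM2, a gene of protein translocation at the endoplasmic reticulum that shares its promoter window, fell by 1.29 ± 0.18 and 0.95 ± 0.07 (adjusted p = 5.8e-07 and 4.04e-11). TBX2-AS1, around a T-box factor gene, fell by 1.31 ± 0.18 (adjusted p = 5.41e-07), and the call of TBX2 (-0.90 ± 0.30, adjusted p = 0.0101) was lost without SEM::mock replicate 3 (-0.74, adjusted p = 0.0668) and in DESeq2 (adjusted p = 0.0535). These pairs were lower in SEM::EGR3 on both strands.

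Of the 251 sense genes, 218 were tested and 16 were at 3 counts or fewer in every library. Among those tested, 84 were higher, 78 lower and 56 not called, which is 74.3% called beside 68.5% of all tested genes, with a median log2 fold change of -0.00 beside 0.03. By direction, 38.5% were higher and 35.8% lower, against 36.5% and 32% of all tested genes. These shares include 96 sense genes of members counted in SEM::EGR3 only (76% called) and 7 of SEM::mock only members (85.7% called). Those members were chosen in part by the difference of the lines, so the pooled shares are no plain comparison with all tested genes. For the 115 tested sense genes of members counted in both lines, 72.2% were called, 35.7% higher and 36.5% lower. In 115 pairs the member was counted in both lines and the sense gene was tested. Both were called in 58 pairs, in 36 of them in the same direction (62.1%), 20 higher and 16 lower. In 22 pairs they were called in opposite directions, 13 with the antisense transcript higher and 9 with it lower. A further 19 pairs had only the antisense transcript called, 25 had only the sense gene called and 13 had neither called. The share of common directions expected from the separate calls was not computed, so the 62.1% is a description. With a log2 fold change of at least 1 required of both, 4 pairs shared the direction and 4 were opposite.

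Over the 115 pairs of members counted in both lines, Spearman's rho between the log2 fold changes of antisense transcript and sense gene was 0.17 and Pearson's r 0.05, so that little of a common trend was seen. Over 94 pairs in which both genes had 20 counts in all libraries the values were 0.20 and 0.16. Over all 220 fitted pairs they were 0.25 and 0.29, and over 98 pairs of members counted in SEM::EGR3 only 0.39 and 0.41, but there the count rule itself set the sign of most antisense differences. All are across pairs that share the same 6 libraries, so they are a description with no test.

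**Figure D2:**
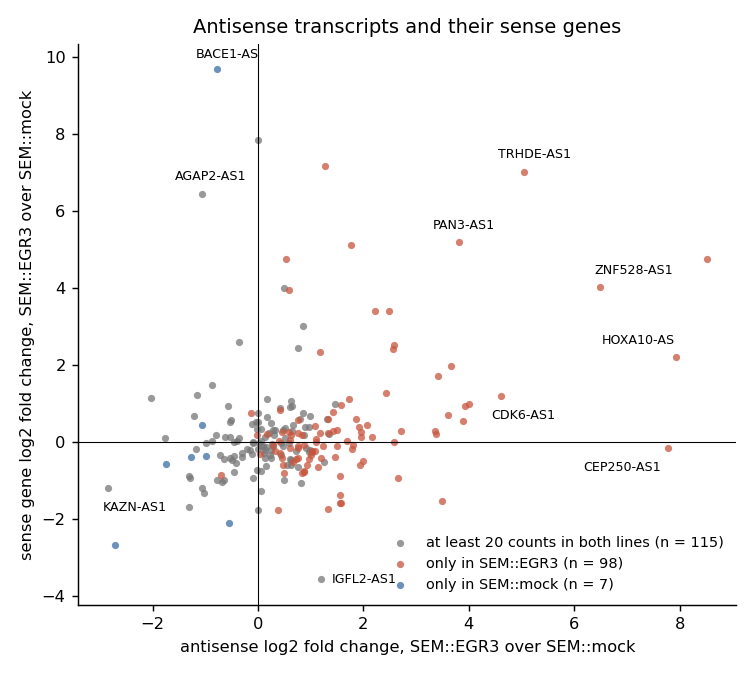
Log2 fold change (SEM::EGR3 over SEM::mock) of each antisense transcript (horizontal) and of its sense gene (vertical) for the 220 pairs in which both were fitted, with 1 point per pair coloured by the line in which the member reached 20 counts. Most grey points lie near the origin, and IGFL2-AS1 and AGAP2-AS1 stand out in opposite quadrants, with IGFL2 at -3.57 and AGAP2 at 6.44, a fitted value against a line at 0 to 3 counts.

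The annotated arrangement (GENCODE 29, GRCh38) was head to head for 102 of 253 pairs (40.3%), meaning starts on opposite strands at most 1 kb apart, with a median distance of 330 bases. A further 51 members crossed the 3′ end of the sense gene, 30 its 5′ end, 42 lay inside it, 20 around it and 8 did not overlap it. Among 23 head to head pairs with both genes called, 14 went the same way and 9 opposite ways. The counts were 7 and 4 for members across the 3′ end, 6 and 2 across the 5′ end, 5 and 4 inside and 4 and 2 around the sense gene, and differences between arrangements were not tested. Opposite directions thus occurred in head to head pairs as well.

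**Figure D3:**
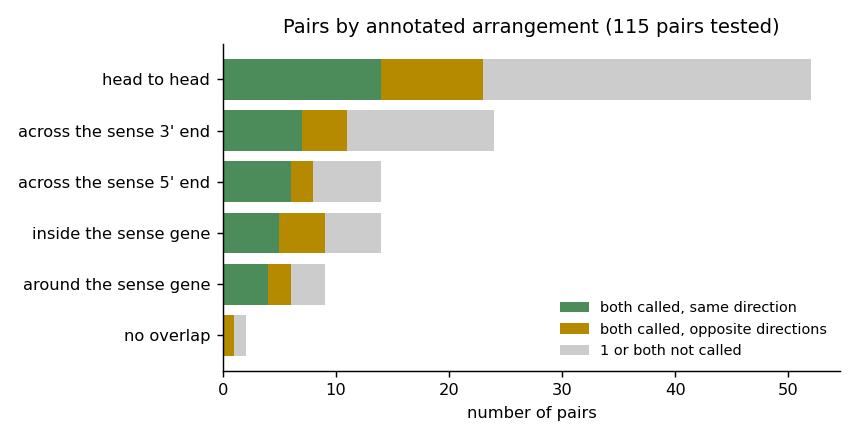
Number of pairs (horizontal) in each annotated arrangement (vertical) among the 115 pairs with a member counted in both lines and a tested sense gene, split into both called in the same direction, both called in opposite directions, and 1 or both not called. Same and opposite directions numbered 14 and 9 in head to head pairs and 7 and 4 across the 3′ end. They numbered 6 and 2 across the 5′ end, 5 and 4 inside and 4 and 2 around the sense gene. These small counts were not tested against an expected share. Without overlap, the only pair with both called was opposite.

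Whether counting used strand is not stated in the sources used here. Reads of a member whose 3′ end lies on an exon of the sense gene can then not be told apart from sense reads, or the reverse. An annotated 3′ end is called on a sense exon here, for all members, if any of the transcript's last 200 genomic bases touches one. For 14 members this held for all annotated 3′ ends, for 51 for some and for 188 for none. In pairs with none, 28 had the same direction and 18 the opposite. Sense 3′ ends on an antisense exon were not examined, and the part of shared reads in these counts was not tested.

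The 8 pairs with the largest difference between opposite calls were chosen for this difference, which is therefore given without a test. IGFL2-AS1 lies near IGFL2, a gene of the insulin growth factor-like family, without overlapping it. It measured 46.8, 69.6 and 57.4 CPM in SEM::mock and 132, 137 and 131 CPM in SEM::EGR3. IGFL2 measured 12.1, 9.68 and 12.3 CPM and 0.514, 1.34 and 1.32 CPM (log2 fold change -3.57 ± 0.26, adjusted p = 7.08e-12). The difference of the log2 fold changes, antisense minus sense, was 4.76 ± 0.27 (SE), and the ratio of antisense to sense widened in favour of the antisense transcript.

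PIK3CD-AS2 lies inside PIK3CD, the gene of the p110δ subunit of phosphoinositide 3-kinase, which acts in B cell receptor signalling. It measured 27.6, 26.5 and 28.5 CPM in SEM::mock and 7.19, 6.57 and 6.05 CPM in SEM::EGR3 (log2 fold change -2.03 ± 0.12, adjusted p = 1.37e-13). PIK3CD measured 18, 22.2 and 20.7 CPM in SEM::mock and 44.2, 44.1 and 45.2 CPM in SEM::EGR3 (1.13 ± 0.09, adjusted p = 5.52e-11). The antisense transcript was the higher of the pair in SEM::mock and the lower in SEM::EGR3, with mean log2 ratios of 0.44 ± 0.18 (SD, n = 3) and -2.67 ± 0.13, taken as (CPM + 0.5) / (CPM + 0.5). CARD8-AS1, head to head with the inflammasome sensor gene CARD8, also fell while its sense gene rose, from 17.8, 17.8 and 15.2 to 8.48, 10.3 and 9.36 CPM, with CARD8 at 15.3 ± 1.95 and 42.1 ± 0.482 CPM (log2 fold changes -0.88 ± 0.13 and 1.47 ± 0.10).

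AGAP2-AS1, inside the gene of a GTPase-activating protein, fell from 5.33 ± 1.04 to 2.65 ± 0.62 CPM (log2 fold change -1.07 ± 0.24, adjusted p = 0.000403). AGAP2 was counted 3, 0 and 0 times in SEM::mock, compared with 262, 125 and 154 times in SEM::EGR3, an increase of at least 31.3-fold against 3 counts per library. The last 200 bases at all annotated 3′ ends of this antisense transcript touch an AGAP2 exon, so reads there cannot be told apart if strand was not used. VPS9D1-AS1 and TTC28-AS1 fell by 1.16 ± 0.21 and 1.22 ± 0.11, while VPS9D1 and TTC28 were higher by 1.21 ± 0.12 and 0.66 ± 0.21. The call of TTC28 was lost without SEM::mock replicate 1 (0.49, adjusted p = 0.0667). ZSCAN16, a zinc finger gene, rose from 1.04 ± 0.579 to 6.35 ± 0.828 CPM (adjusted p = 3.98e-08) under the far more abundant and falling ZSCAN16-AS1. PPP1R26-AS1 rose by 0.81 ± 0.22 and PPP1R26, a gene of a protein phosphatase subunit, fell by 1.08 ± 0.10.

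**Figure D4:**
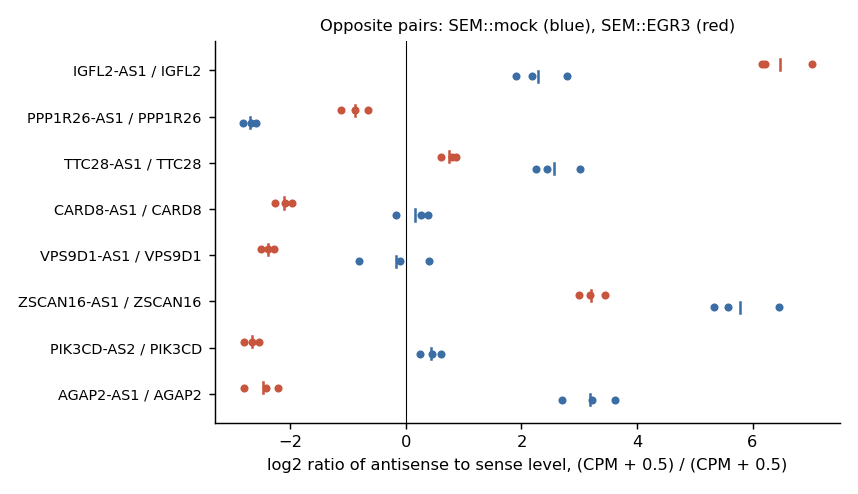
Log2 ratio of the antisense to the sense level, (CPM + 0.5) / (CPM + 0.5), in each library (points) with the mean of the 3 libraries (short line) for the 8 pairs with the largest opposite differences, SEM::mock in blue and SEM::EGR3 in red. In each pair the libraries of the lines do not overlap, as the choice of pairs favours. The mean ratio changed sign for PIK3CD-AS2 (0.44 to -2.67), AGAP2-AS1 (3.18 to -2.48) and CARD8-AS1 (0.15 to -2.11). For CARD8-AS1 the ratio in SEM::mock replicate 3 was already negative (-0.18).

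Of the pairs called in the same direction, the 8 strongest in each direction are named, in part above. PRKCQ-AS1 starts 118 bases from PRKCQ, the gene of protein kinase C theta. It fell from 22.4 ± 2.33 to 10.8 ± 0.883 CPM, and PRKCQ from 12.5 ± 2 to 5.48 ± 0.586 CPM (log2 fold changes -1.07 ± 0.12 and -1.20 ± 0.17, adjusted p = 2.37e-08 and 6.51e-07). SOCS2-AS1 fell by 1.03 ± 0.17 and SOCS2, a suppressor of cytokine signalling, by 1.34 ± 0.06. ZEB1-AS1 and ZEB1, a zinc finger repressor, fell by 0.78 ± 0.16 and 0.99 ± 0.17, and NR2F2-AS1 and the orphan nuclear receptor gene NR2F2 by 0.68 ± 0.19 and 1.04 ± 0.06.

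On the rising side, TSPOAP1-AS1 rose by 0.85 ± 0.15 and TSPOAP1 by 3.01 ± 0.28 (adjusted p = 1.78e-05 and 6.1e-10). ENTPD3-AS1 and the ectonucleotidase gene ENTPD3 rose by 0.75 ± 0.19 and 2.43 ± 0.42, and TMEM44-AS1 and TMEM44 by 0.63 ± 0.16 and 1.07 ± 0.20. DHRS4-AS1 and the short-chain dehydrogenase gene DHRS4 rose by 0.61 ± 0.19 and 0.91 ± 0.10, DHRS4 being part of a cluster of near-identical copies that can share reads. ATP2A1-AS1 rose by 0.65 ± 0.09 with all its 3′ ends on an exon of ATP2A1, a calcium pump gene. The call of ATP2A1 (0.94 ± 0.35, adjusted p = 0.0202) was lost in 5 alternatives, without SEM::mock replicate 1 (0.80) or 2 (0.61) and without SEM::EGR3 replicate 1 (0.62) among them.

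**Figure D5:**
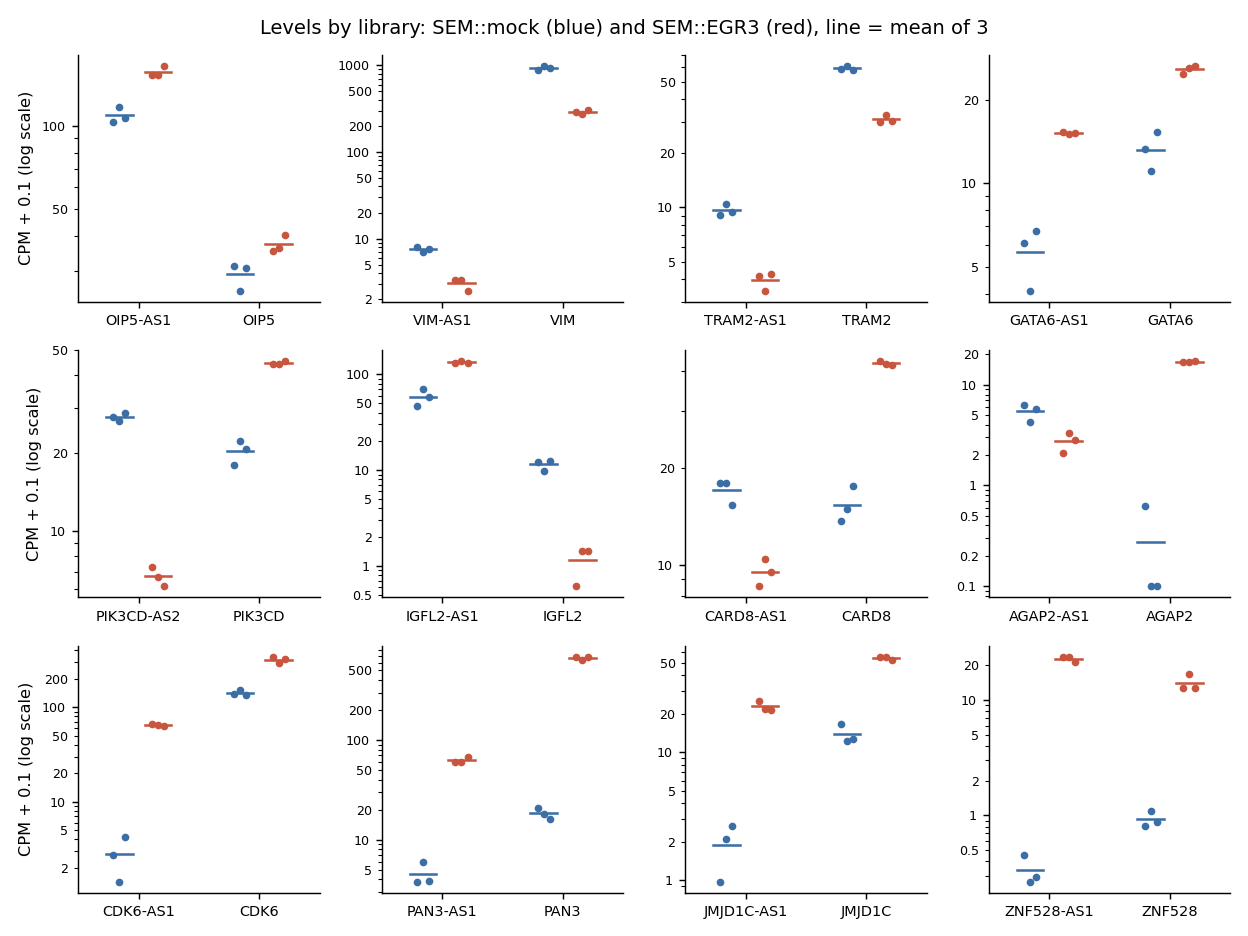
CPM plus 0.1 on a log scale, a separate one in each panel, of 12 antisense transcripts and their sense genes in every library (points) with the mean of 3 (line), SEM::mock in blue and SEM::EGR3 in red. In the PIK3CD, IGFL2, CARD8 and AGAP2 panels the strands move apart, and in the others both move the same way, with CDK6-AS1 at 2.69 and 64.7 CPM beside CDK6 at 140 and 319 CPM.

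The 115 members counted in SEM::EGR3 only and the 10 counted in SEM::mock only were chosen by the difference of the lines and by depth, so their values are given without a test. At an equal level, 3.91 CPM in every library of a line, the numbers were 75 for SEM::EGR3 only and 21 for SEM::mock only, beside 115 members in both lines. The first group therefore rests in part on the deeper SEM::EGR3 libraries. Counts of single members given below are not scaled for this depth. Just inside the count were FGF14-AS2, KMT2E-AS1 and LYRM4-AS1, each with a lowest deciding count of 20, and just outside CCND2-AS1, DARS-AS1 and DLGAP1-AS2 with 19. The log2 fold changes of the SEM::EGR3 only members ran from -0.70 to 9.37. They were at least 1 for 76 members, and in 14 the lines overlapped. In SEM::mock 7 members had no count in any library, and 12 had 3 counts or fewer.

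CDK6-AS1 is head to head with CDK6, the kinase partner of D-type cyclins and a known target of KMT2A fusions. It was counted 15, 8 and 21 times in SEM::mock, compared with 1024, 480 and 580 times in SEM::EGR3, 24 times the CPM. CDK6 was present in both lines and rose from 140 ± 9.56 to 319 ± 24.5 CPM (log2 fold change 1.18 ± 0.06, adjusted p = 2.44e-14). PAN3-AS1 was counted 21, 35 and 19 times in SEM::mock, compared with 938, 453 and 616 times in SEM::EGR3, and PAN3, a subunit of a poly(A) nuclease, rose from 18.3 ± 2.2 to 665 ± 26.4 CPM (5.18 ± 0.08, adjusted p = 3.47e-25). Both antisense transcripts were low but counted in every SEM::mock library.

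ZNF528-AS1 was counted 2, 1 and 1 times in SEM::mock, compared with 363, 175 and 193 times in SEM::EGR3, which is at least 42.1-fold higher. ZNF528, a zinc finger gene with which it shares its promoter window, had 4, 6 and 4 and then 196, 123 and 115 counts (log2 fold change 4.01 ± 0.26, adjusted p = 1.1e-12), so both strands were nearly silent in 1 line and present in the other. TRHDE-AS1 had 4, 2 and 5 and then 340, 186 and 182 counts, and TRHDE, a peptidase gene, 3, 1 and 1 and then 659, 263 and 382 counts, at least 74.1-fold higher. JMJD1C-AS1 lies inside a gene of the JmjC demethylase family. It had 5, 12 and 13 and then 387, 162 and 194 counts, beside an increase of JMJD1C by 1.98 ± 0.10 (adjusted p = 8.4e-15).

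For other members of this group the sense gene fell, was hardly detected or changed little. OSMR-AS1 starts 29 bases from OSMR, the oncostatin M receptor gene. It was counted 14, 23 and 13 times in SEM::mock, compared with 288, 143 and 169 times in SEM::EGR3, while OSMR fell from 19.4 ± 2.77 to 9.86 ± 1.74 CPM (log2 fold change -0.93 ± 0.14, adjusted p = 2.85e-06). CD27-AS1 had 18, 22 and 21 and then 269, 132 and 118 counts, and CD27, a receptor of memory B cells and T cells, had 0 to 4 counts in every library. ZNF710-AS1 measured 4 ± 0.87 and 15.1 ± 0.311 CPM, with all its 3′ ends on a ZNF710 exon, and the call of ZNF710 (0.39 ± 0.16, adjusted p = 0.0346) was lost in 7 alternatives, with each SEM::mock library left out (0.35 to 0.40) and without SEM::EGR3 replicate 1 (0.27). Over the SEM::EGR3 only group, 98 members had a tested sense gene, which was higher in 43 cases, lower in 32 and not called in 23. Counted once each, 42.7% of these 96 genes were higher and 33.3% lower, beside 36.5% and 32% over all tested genes. The members were chosen in part by the difference of the lines, so this is no plain comparison.

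The SEM::mock only members were few. RNF207-AS1 was counted 37, 43 and 28 times in SEM::mock, compared with 14, 13 and 4 times in SEM::EGR3, and RNF207, a ubiquitin ligase gene, fell by 2.68 ± 0.30 (adjusted p = 2.48e-08). HSD11B1-AS1 stood at 28 counts in each SEM::mock library against 17, 5 and 5 in SEM::EGR3, whereas HSD11B1, the cortisol-regenerating enzyme gene, had at most 3 counts. BACE1-AS is known for stabilising the message of the β-secretase gene BACE1. It fell from 5.22 ± 0.725 to 2.87 ± 0.809 CPM, with 26, 36 and 26 and then 59, 17 and 23 counts. BACE1 had none in SEM::mock, compared with 202, 87 and 113 in SEM::EGR3, which is at least 23-fold higher, so this antisense transcript was counted in SEM::mock without its sense gene. For 7 members of this group the sense gene was tested, with 2 higher, 4 lower and 1 not called. Over all tested genes 36.5% were higher and 32% lower. The 7 are too few, and chosen in part by the difference of the lines, for a comparison.

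Among 50 antisense RNAs with a published function that were listed for this work, 25 were members, 14 of them counted in both lines. Of these 14, 4 were higher, 7 lower and 3 not called, with a median log2 fold change of -0.30 beside -0.06 for genes with 20 counts in all libraries, of which 30.1% were higher and 37.9% lower. TP73-AS1 fell from 43.1, 40.2 and 41.8 to 19.7, 17.8 and 17.3 CPM (-1.17 ± 0.09, adjusted p = 2.22e-11), and the p53 family gene TP73 was not called (-0.19 ± 0.11, adjusted p = 0.121). PAXIP1-AS1 fell by 0.98 ± 0.09 (adjusted p = 1.01e-09), with PAXIP1 not called (-0.04 ± 0.10, adjusted p = 0.748). NNT-AS1 fell by 0.80 ± 0.08 (adjusted p = 4.83e-09), beside an NNT call (0.19 ± 0.07, adjusted p = 0.0264) that was lost in 7 alternatives, without SEM::mock replicate 1, 2 or 3 and without SEM::EGR3 replicate 1 or 3 (0.14 to 0.18). TMPO-AS1 rose with TMPO, a gene of nuclear lamina proteins, by 0.66 ± 0.14 and 0.43 ± 0.05 (adjusted p = 0.00014 and 9.83e-08). PXN-AS1 was not called (0.01 ± 0.13, adjusted p = 0.938) while PXN, the focal adhesion gene paxillin, fell by 1.76 ± 0.07 (adjusted p = 1.38e-16).

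For 23 members the name before -AS stood on a list of blood transcription factors and of cell cycle, death and kinase genes. HOXB-AS1 and HOXC-AS1 entered by the name of their cluster and have no sense gene here. Of the 23, 12 were counted in both lines, with 2 higher, 8 lower and 2 not called. Their median log2 fold change was -0.48, beside 30.1% higher, 37.9% lower and a median of -0.06 for genes with 20 counts in all libraries. Among these 12, CDKN2B-AS1, ZEB1-AS1, TP73-AS1, PRKAR1B-AS1 and MAPKAPK5-AS1 were on the list of published functions as well. CDKN2B-AS1 is counted as lower on both lists and lost its call in 9 alternatives. GATA2-AS1, across the 5′ end of the stem cell factor gene GATA2, measured 24.2 ± 1.64 and 20.1 ± 2.94 CPM, with overlapping libraries. Its call (-0.31 ± 0.11, adjusted p = 0.02) was lost in 5 alternatives, without SEM::mock replicate 2 (-0.28) or SEM::EGR3 replicate 1 (-0.16) among them, whereas GATA2 fell by 0.40 ± 0.06 (adjusted p = 4.06e-06). MAP3K14-AS1 and the NF-κB kinase gene MAP3K14 rose by 0.42 ± 0.10 and 0.89 ± 0.17 (adjusted p = 0.000903 and 6.69e-05).

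A further 11 members of this kind were counted in SEM::EGR3 only. LEF1-AS1 was counted 6, 8 and 11 times in SEM::mock, compared with 130, 70 and 85 times in SEM::EGR3, and LEF1, a factor of Wnt signalling and B cell precursors, rose from 50.3 ± 3.38 to 267 ± 18.7 CPM (2.41 ± 0.07, adjusted p = 9.41e-20). MEF2C-AS1 had 5, 2 and 3 and then 61, 20 and 30 counts, and MEF2C-AS2 had 4, 6 and 1 and then 42, 23 and 34 counts, both beside the same increase of MEF2C (3.41 ± 0.08, adjusted p = 5.46e-22). HOXA10-AS had no count in SEM::mock, compared with 62, 27 and 31 in SEM::EGR3, which is at least 6.82-fold higher, with all its annotated 3′ ends on an exon of HOXA10, which rose by 2.20 ± 0.09 (adjusted p = 2.2e-16). For KLF3-AS1 and WT1-AS the sense gene had the opposite sign. KLF3-AS1 had 8, 4 and 4 and then 51, 31 and 35 counts while KLF3 fell by 0.61 ± 0.09 (adjusted p = 6.76e-07). WT1-AS had 10, 29 and 14 and then 86, 42 and 64 counts while WT1 fell by 0.59 ± 0.11 (adjusted p = 3.82e-05). In CPM, WT1-AS measured 1.76, 4.84 and 2.73 in SEM::mock and 5.52, 5.63 and 7.04 in SEM::EGR3.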

How the data were processed

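MACE-Seq libraries of 3 SEM::mock and 3 SEM::EGR3 replicates were analysed, grouped by their titles. Counts per gene, whole and without normalisation, were deposited by the authors and made with bcl2fastq, Bowtie2 and HTSeq on GRCh38 per the labels' processing notes, and tool versions, annotation release and use of strand are not given in the sources used here. The deposited table also holds CPM values (scaled to a library total, named TPM) and size-factor normalised values, a signal scale made by the authors, and neither was used for results. Fold changes and p-values of the authors' own comparison were not used. No column of per-sample values was left over, since all belong to these 6 libraries.

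The lines were compared with edgeR 4.0.16 in R 4.3.3 (filterByExpr, TMM, glmQLFit, glmQLFTest, group as the only term, adjustment after Benjamini and Hochberg over 15465 genes). All 262 members passed the filter, and tests are given for the 137 with 20 counts in all libraries and for the sense genes. SE is the log2 fold change divided by the root of F. CPM are of the listed counts with TMM factors. Folds against a line at 3 counts or fewer in each library use 3 counts per library, and cover counting error only. On simulated counts of 15465 genes, 15062 of them tested, 166 of 191 changed genes were recovered with 14 false calls. Far fewer genes changed there than the 68.5% of tested genes called in the data. Scaling and false calls with most genes changed were therefore not examined. Replicates differed by more than counting noise, with a chi-square per degree of freedom of 1.78 to 3.39.

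Named members are the 8 with the largest increase and the 8 with the largest decrease among those called, the 8 most abundant, the 8 most abundant counted in 1 line only for each line, the 8 most different opposite pairs, the 8 strongest pairs in each common direction, and members on the lists, a part of which is described. Among the list members, 1 result is not reported here. The members, lists and rules were chosen with earlier results of these data known. Arrangements come from GENCODE 29, promoter windows from RefSeq (GRCh38.p14), and 189 of 262 members matched one. The motif GCGNGGGCG was searched on both strands. Alternatives were DESeq2 1.42.0, other scalings and filters, the replicate number as a term, each library left out, a minimum fold, other count rules for membership, other definitions of a pair and, added after the data were seen, only pairs with no antisense 3′ end on a sense exon.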

Additional observations from a re-analysis of the deposited data

How the results depend on the processing

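Depth limits the low members, since 3 counts are 0.5 to 0.586 CPM in SEM::mock and 0.193 to 0.402 CPM in SEM::EGR3. With a log2 fold change of at least 1 required, the called members were 6 higher and 15 lower, the sense genes 29 and 17, and the pairs 4 in the same and 4 in opposite directions. Head to head pairs alone gave 14 and 9, fewer because fewer pairs entered. At 40 counts there were 172 members, 81 in both lines and 5 in SEM::mock only, and at an equal CPM 75 in SEM::EGR3 only and 21 in SEM::mock only. The correlation over pairs was 0.20 with 20 counts in all libraries for both genes. With each library left out in turn, members were 39 to 46 higher and 41 to 44 lower, sense genes 75 to 85 and 71 to 78, and pairs 31 to 37 in the same and 17 to 20 in opposite directions. DESeq2 called 39 members higher and 37 lower. Without normalization factors the median log2 fold change of all genes moved by 0.08. The replicate numbers do not pair the libraries (correlations of same-numbered libraries -0.105, -0.0635 and -0.034), and with the replicate number as a block 42 members were higher and 43 lower, sense genes 80 and 74, and pairs 35 and 18. Of the named genes, 13 lost their call in at least 1 alternative, and none reversed.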
